A study of Mus musculus with 12 samples.

Results

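The genes described here are 10 genes of insulin, IGF, leptin and adiponectin signalling, measured in the adrenal cortex of mice by RNA-seq. They were listed by symbol and no measured value entered the rule, but earlier results of these data were known when they were chosen. They are the ligands *Igf1* and *Igf2*, the receptors *Insr*, *Igf1r*, *Lepr*, *Adipor1* and *Adipor2*, the adaptors *Irs1* and *Irs2*, and the transcription factor *Foxo1*. All 10 were found among the 49585 genes of the count tables, and all 10 passed the filter on low counts, which kept 15909 genes for the main comparison. A further 104 genes of the same pathways were followed as lists.

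The data were 12 libraries, 1 for each of 12 male mice, aged 6 weeks when the diets began and fed for 20 weeks. Of these, 4 mice received the low-fat diet (LFD, 10% of energy from fat, "Normal Diet" in the labels), 4 the high-fat diet (HFD, 60% of energy from fat), and 4 the HFD with icosapent ethyl, the ethyl ester of eicosapentaenoic acid, during the last 10 weeks. The labels give the genotype Fads2-/- for all 12 mice, whereas the study describes wild-type C57BL/6J mice for these feedings. *Fads2* was expressed at 452 to 2181 CPM in every library, so none of them stood out as lacking the transcript. Libraries are named by the numbers the labels give, which run 2, 5, 6 and 7 in the LFD group and 1 to 4 in the other groups.

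Totals ran from 34785979 to 67295963 counts per library. Levels are given as CPM, a gene's count relative to the library total after TMM scaling, which lets libraries with different RNA composition be compared. The label of the tissue was checked against its markers. The 8 adrenocortical markers, among them *Nr5a1*, *Star* and *Cyp11b1*, summed to between 46562 and 100630 CPM, and none was at 0. The 12 markers of chromaffin cells, the catecholamine cells of the medulla, were also present, at 6421 to 22635 CPM in LFD, 3102 to 10005 CPM in HFD and 5552 to 11004 CPM in icosapent ethyl mice.

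As background, insulin and the insulin-like growth factors bind the related tyrosine kinase receptors INSR and IGF1R, which pass the signal through the adaptors IRS1 and IRS2 to PI3-kinase and AKT. AKT phosphorylates FOXO1, which then leaves the nucleus and stops driving its target genes. Leptin, the hormone of fat cells that reports energy stores, signals through LEPR and JAK-STAT proteins, and adiponectin through ADIPOR1 and ADIPOR2 to AMPK and PPARα. In the adrenal gland, IGF1 and IGF2 are known growth factors of cortical cells, and leptin is known to dampen glucocorticoid output.

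RefSeq promoter windows (GRCm38.p6), taken as the 250 bases before a start site, were at hand for 9 of the 10 genes, in 14 windows. They are shown for the adaptors *Irs1* and *Irs2*, which have the same role and the most unequal levels of any pair described below, and for *Adipor2*, because these windows lie outside annotated exons and hold letters linked to insulin and FOXO. Capitals mark either the insulin response sequence CAAAACA or the forkhead element GTAAACA, searched on both strands, and the 2 do not overlap in any window shown. All matches shown read on the reverse strand, as TGTTTTG or TGTTTAC. Each window is printed 5′ to 3′ on the strand of its gene.
Irs1, chr1:82291440-82291689, minus strand: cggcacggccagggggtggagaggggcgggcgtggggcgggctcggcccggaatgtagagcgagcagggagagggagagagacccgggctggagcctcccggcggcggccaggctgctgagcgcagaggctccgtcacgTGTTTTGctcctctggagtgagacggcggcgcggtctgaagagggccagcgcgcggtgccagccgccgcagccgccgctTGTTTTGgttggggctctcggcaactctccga
Irs2, chr8:11008930-11009179, minus strand: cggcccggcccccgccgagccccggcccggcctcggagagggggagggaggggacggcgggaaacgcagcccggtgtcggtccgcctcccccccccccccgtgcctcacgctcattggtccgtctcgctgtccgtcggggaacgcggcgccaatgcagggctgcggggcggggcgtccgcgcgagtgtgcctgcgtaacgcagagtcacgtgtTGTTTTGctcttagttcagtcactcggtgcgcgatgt
Adipor2, chr6:119388735-119388984, minus strand: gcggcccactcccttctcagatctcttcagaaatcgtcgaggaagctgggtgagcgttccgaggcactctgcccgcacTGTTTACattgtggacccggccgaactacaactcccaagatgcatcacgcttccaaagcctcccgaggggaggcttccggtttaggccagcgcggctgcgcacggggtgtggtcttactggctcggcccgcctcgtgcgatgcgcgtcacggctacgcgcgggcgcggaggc

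The *Irs1* window held the insulin response sequence at 111 and at 32 bases before the start site, and the *Irs2* window held it at 37 bases. It was present in 5.56% of 32851 windows of the same length and in 3 of the 14 windows of these genes. The third was a *Lepr* window that lies within annotated exons and is not shown. The forkhead element in the *Adipor2* window began 172 bases before the start site of that window. It was present in 3.17% of all windows and in 1 of the 14 windows of these genes. The *Adipor2* window lies inside the annotated gene (chr6:119353150-119417704, minus strand), so its start site is not the outermost annotated one. These are matches of letters, and no binding was measured.

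Per kilobase of exon, the adiponectin receptors were the most abundant of the 10 transcripts. Mean levels over the 12 mice were 50.8 CPM per kb for *Adipor1*, 22.6 for *Adipor2*, 9.27 for *Insr*, 8.56 for *Irs2*, 5.29 for *Igf1r* and 4.77 for *Foxo1*. They were 3.88 CPM per kb for *Igf2*, 1.85 for *Lepr*, 1.05 for *Igf1* and 0.317 for *Irs1*. Only the first 2 steps of this order separated all mice, *Adipor1* (43.5 to 55.9 CPM per kb) from *Adipor2* (16.8 to 27.9) and *Adipor2* from *Insr* (5.85 to 12.9); the other neighbours overlapped. The insulin genes themselves were at or near 0: *Ins1* had no count in any mouse and *Ins2* at most 3 counts.

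The comparison of HFD with LFD mice asks how diet-induced obesity changed these transcripts in the gland. Of the 10 genes, 1 passed the test in HFD versus LFD mice (edgeR quasi-likelihood test, Benjamini-Hochberg adjusted p below 0.05 over all genes), against 1.45% of all genes tested. It was *Igf1*, which fell. Groups did not overlap for 3 of the 10 (*Igf1*, *Insr* and *Foxo1*), against 13.5% of all genes. An unadjusted p below 0.05 was reached by 5 of the 10, against 24.8% of all genes, and the median log2 fold change was 0.17 for the 10 and -0.02 for all genes.

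**Figure D1:**
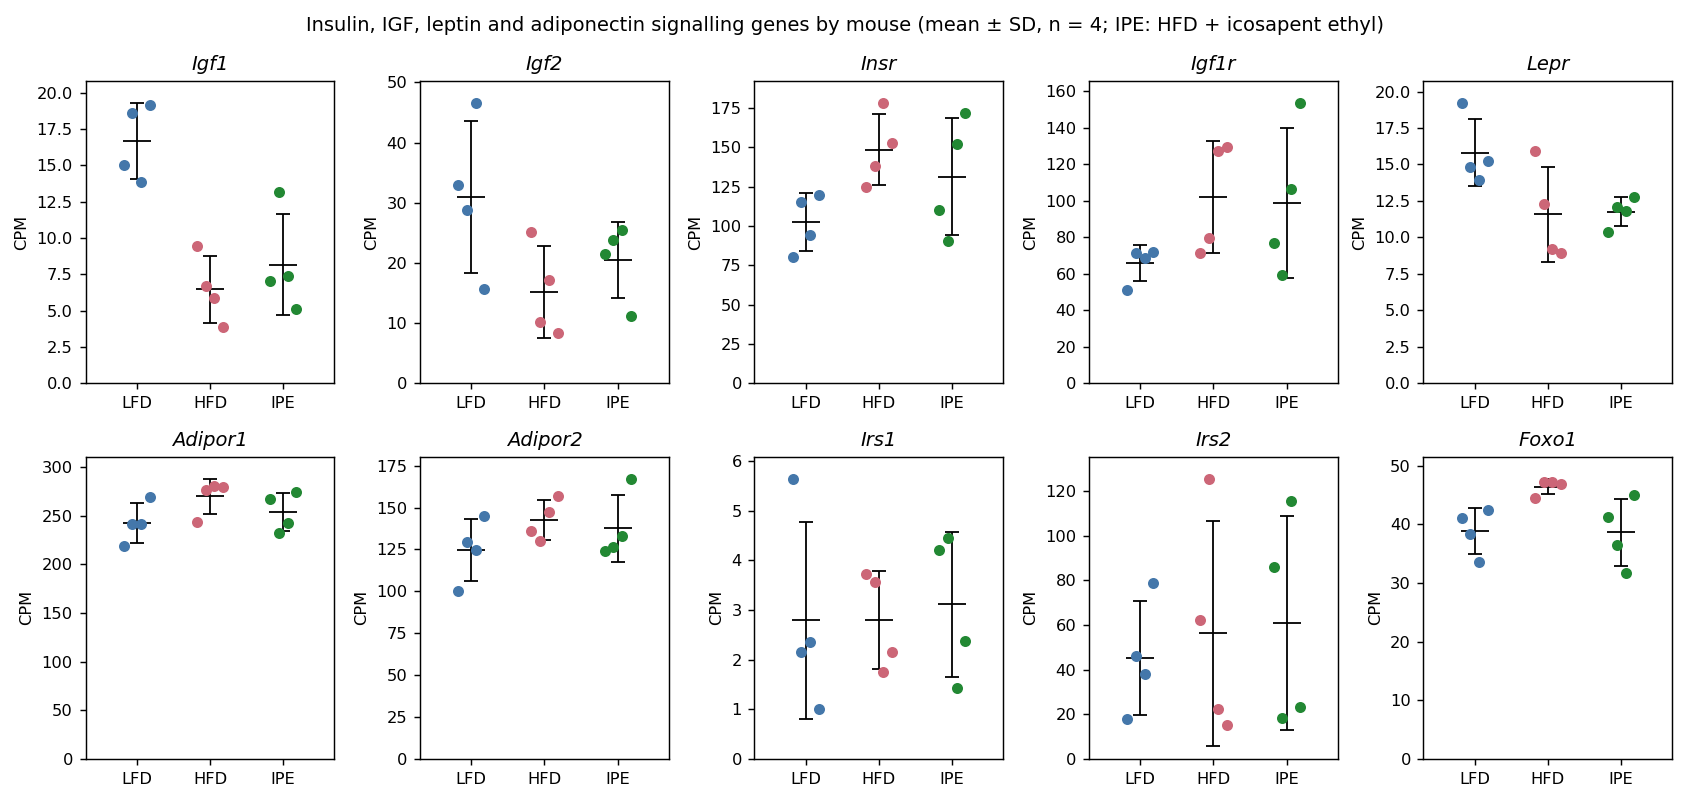
CPM (counts relative to the TMM-scaled library total) of each of the 10 genes in each mouse, 1 panel per gene with its own axis starting at 0. Points are mice, bars are the mean and SD of 4 mice, and IPE stands for HFD + icosapent ethyl; *Igf1* is between 13.8 and 19.1 CPM in LFD mice and between 3.84 and 9.47 in HFD mice, while *Irs2* spreads from 14.99 to 125 CPM across the groups.

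*Igf1* (chr10:87858265-87937042, plus strand), a ligand of IGF1R, was at 15.02, 18.6, 13.8 and 19.1 CPM in LFD mice 2, 5, 6 and 7. It was at 9.47, 6.68, 5.84 and 3.84 CPM in HFD mice 1 to 4, and at 7.06, 13.2, 7.36 and 5.09 CPM in icosapent ethyl mice 1 to 4. Every LFD mouse was above every mouse of both HFD groups. The means were 16.7 ± 2.62 (SD, n = 4) and 6.46 ± 2.33 CPM, a log2 fold change of -1.37 with a standard error of 0.26, a 95% interval from -1.96 to -0.78 and an adjusted p of 0.0456. An exact two-sided permutation test of the 2 groups gave p = 0.0286, the smallest that 4 against 4 mice allow. The call was close to the threshold and rested on the full set of mice: it was lost in 7 of 8 fits that left out 1 mouse (adjusted p up to 0.133) and held only without HFD mouse 1 (0.0177), while the log2 fold change stayed between -1.62 and -1.18. With DESeq2 it passed as well (-1.37, adjusted p = 3.47e-05). In 6 of those 8 fits no gene of the whole table passed, with 2711 to 3990 genes at an unadjusted p below 0.05.

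Several marker lists moved with *Igf1* over the mice, among them that of macrophages, a known source of IGF1. The 8 macrophage markers summed to 425 to 618 CPM in LFD mice, 326 to 387 CPM in HFD mice and 340 to 367 CPM in icosapent ethyl mice, and none was at 0. Of the 8, 6 had a lower mean in HFD than in LFD mice, 3 of them past the test, and 2 had a higher mean, *Mrc1* (27.1 and 32.2 CPM in LFD and HFD mice) and *Cd163* (0.863 and 0.944 CPM). The 3 C1q genes made up most of the sum. Per 1000 CPM of these markers, *Igf1* stood at 32.2 ± 2.40 CPM in LFD mice and at 18.9 ± 7.56 CPM in HFD mice, with ranges of 29.7 to 35.3 and 11.7 to 29.1 that did not overlap. In icosapent ethyl mice 1 to 4 it stood at 20.5, 35.8, 21.6 and 14.3 CPM (23.1 ± 9.12). Mouse 2 was above every LFD mouse, and mice 1, 3 and 4 were below every LFD mouse. Over the 12 mice the log2 CPM of *Igf1* and of this sum correlated with r = 0.797 and rho = 0.699 (permutation test, adjusted p = 0.00823 and 0.0787 over 90 relations of the 10 genes with 9 marker lists), with r = 0.643 without the 2 mice farthest from the median and 0.266 for deviations from the group means. Fewer cells of a type and less RNA per cell cannot be told apart in bulk tissue. *Igf1* also ran opposite to the adrenocortical markers (r = -0.806, rho = -0.832, adjusted p = 0.0193 and 0.021, r = -0.930 without the 2 farthest mice and -0.629 within groups). It ran with the fibroblast and capsule markers (r = 0.777, rho = 0.811, adjusted p = 0.0193 and 0.021, r = 0.745 without the 2 farthest mice and 0.544 within groups). The part of these 2 lists in the *Igf1* difference was not tested. The genes whose log2 CPM followed *Igf1* most closely over the 12 mice were *Fabp5* (r = 0.970), a fatty acid carrier, *Ptafr* (0.967), the receptor of platelet-activating factor, and *C7* (0.964), a complement component.

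*Igf2* (chr7:142650766-142666816, minus strand), the other IGF, was at 32.9, 28.8, 46.5 and 15.7 CPM in LFD mice 2, 5, 6 and 7. It was at 25.2, 10.1, 17.2 and 8.41 CPM in HFD mice and at 21.4, 23.8, 25.5 and 11.2 CPM in icosapent ethyl mice. The groups overlapped, since LFD mouse 7 lay below 2 of the 4 HFD mice. The means were 31.0 ± 12.7 and 15.2 ± 7.65 CPM in LFD and HFD mice, a log2 fold change of -1.04 with a 95% interval from -1.96 to -0.11 that did not pass the test (adjusted p = 0.165).

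The order of the mice for *Igf2* was nearly that of the chromaffin-cell markers. Over the 12 mice, the log2 CPM of *Igf2* and of the summed markers correlated with Pearson's r = 0.975 and Spearman's rho = 0.986 (permutation test, both p = 1e-05, the smallest the resampling can give; adjusted p = 9e-04 over the same 90 relations). The r was 0.964 without the 2 mice farthest from the median and 0.961 for deviations from the group means. All 12 of these markers were lower on average in HFD than in LFD mice and 0 passed the edgeR test, although 9 had an unadjusted p below 0.05. Per 1000 CPM of chromaffin markers, *Igf2* was at 2.12 ± 0.332 CPM in LFD, 2.60 ± 0.517 in HFD and 2.22 ± 0.136 in icosapent ethyl mice, and this ratio spanned 1.93-fold over all mice. Its closest genes were *Baiap3*, *Mfsd6* and *Lhfpl4* (each r = 0.993), of which *Baiap3* acts in the release of dense-core vesicles. *H19*, the imprinted neighbour of *Igf2*, stayed at or below 0.663 CPM in every mouse. On the same strand, *Gm49394* shares 62.8% of the *Igf2* exon bases and is not among the genes counted. Reads in the shared bases could not be told apart between the 2 genes.

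**Figure D2:**
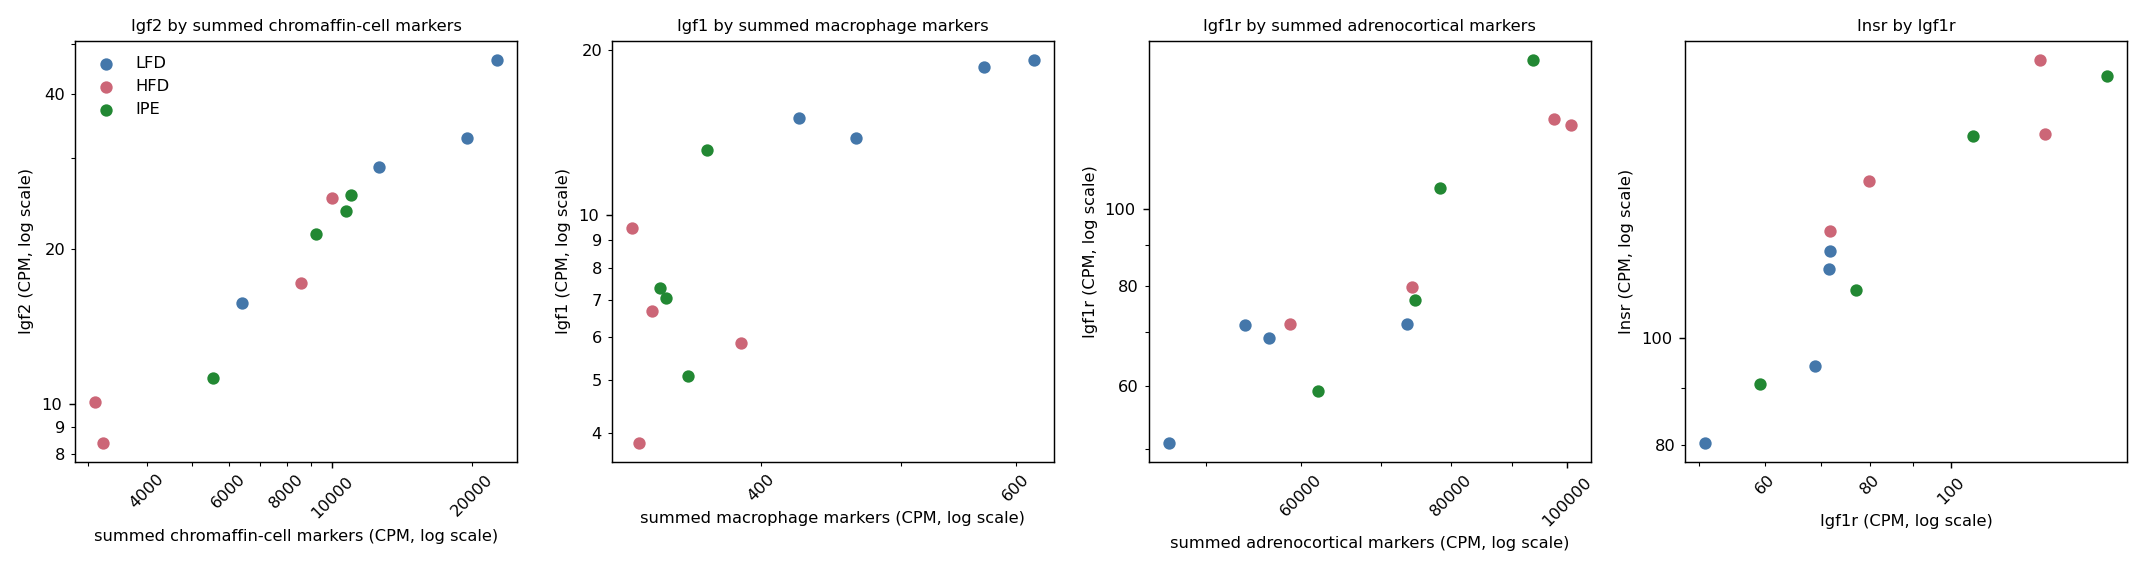
Each point is 1 mouse, coloured by group (IPE: HFD + icosapent ethyl), on log axes in CPM. The panels plot *Igf2* by summed chromaffin-cell markers (r = 0.975), *Igf1* by summed macrophage markers, *Igf1r* by summed adrenocortical markers (r = 0.903) and *Insr* by *Igf1r* (r = 0.928); the first panel is close to a line, while in the second the LFD mice stand apart to the upper right.

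*Insr* (chr8:3122061-3279617, minus strand), the insulin receptor, was at 80.4, 115, 94.2 and 120 CPM in LFD mice 2, 5, 6 and 7. It was at 125, 138, 178 and 153 CPM in HFD mice and at 110, 90.7, 152 and 172 CPM in icosapent ethyl mice. Every HFD mouse was above every LFD mouse, whereas the icosapent ethyl mice covered nearly the whole range. The log2 fold change of HFD versus LFD mice was 0.53 with a standard error of 0.15 and an interval from 0.20 to 0.86, and it did not pass the test (adjusted p = 0.0855). With DESeq2 the same difference passed (0.54, adjusted p = 0.0300).

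*Igf1r* (chr7:67952827-68233668, plus strand), the receptor of IGF1 and IGF2, was at 50.9, 71.5, 68.8 and 71.8 CPM in LFD mice. HFD mice had 71.6, 79.7, 127 and 129 CPM, and icosapent ethyl mice had 76.9, 59.1, 106 and 153 CPM. The HFD group was split in this gene, with mice 1 and 2 beside the LFD mice and mice 3 and 4 well above them. The log2 fold change was 0.63 with an interval from 0.16 to 1.10, and the adjusted p was 0.122.

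The 2 receptors followed each other from mouse to mouse. Their log2 CPM correlated with r = 0.928 and rho = 0.930 over 12 mice (permutation test, adjusted p = 0.00045 and 0.00135 over the 45 pairs of the 10 genes), with r = 0.893 without the 2 mice farthest from the median and 0.913 for deviations from the group means. *Insr* was 1.37 to 2.13 times *Igf1r* per kilobase in every mouse, although *Igf1r* itself varied from 50.9 to 153 CPM. Both also followed the summed adrenocortical markers, with r = 0.873 for *Insr* and 0.903 for *Igf1r* (adjusted p = 0.0063 and 0.00315 over the 90 relations), and r = 0.805 and 0.857 within groups. Without the 2 farthest mice r was 0.772 and 0.877. These markers overlapped between the diets (46562 to 73501 CPM in LFD, 58739 to 100630 CPM in HFD), all 8 were higher on average in HFD mice and 0 passed the test, with 5 at an unadjusted p below 0.05. Both receptors ran opposite to the fibroblast and capsule markers, with r = -0.758 for *Insr* and -0.845 for *Igf1r* (permutation test, adjusted p = 0.0261 and 0.00792). For these, rho was -0.720 and -0.748 (adjusted p = 0.066 and 0.0567), and r within groups was -0.613 and -0.764. The part of either marker list in the receptor differences was not tested. Closest to *Insr* were *Fndc3b* (0.982), *Wdr26* (0.978) and *Cobll1* (0.975), and closest to *Igf1r* were the lincRNA *2700033N17Rik* (0.988), the pseudogene *Gm13509* (0.980) and *Itpk1* (0.978), an inositol phosphate kinase.

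*Lepr* (chr4:101717404-101815352, plus strand), the leptin receptor, was at 19.2, 14.8, 14.0 and 15.3 CPM in LFD mice. In HFD mice it was at 15.9, 12.3, 9.20 and 8.95 CPM, and in icosapent ethyl mice at 10.4, 12.1, 11.8 and 12.8 CPM. HFD mouse 1 lay among the LFD mice, and the icosapent ethyl mice were all below them. The HFD versus LFD log2 fold change was -0.46 with an interval from -0.94 to 0.02 (adjusted p = 0.217). *Lepr* ran opposite to the adrenocortical markers over the mice (r = -0.825, rho = -0.818, adjusted p = 0.01, r = -0.682 without the 2 farthest mice) and with the 8 markers of fibroblasts and capsule (r = 0.778, rho = 0.685, adjusted p = 0.0193 for r and 0.0872 for rho, r = 0.519 without the 2 farthest mice). Those fibroblast markers summed to 391 to 650 CPM on the LFD and to 297 to 422 CPM on the HFD, and their part in the *Lepr* values was not tested.

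*Adipor1* (chr1:134415378-134433351, plus strand), the adiponectin receptor tied to AMPK, had the smallest spread among the 10 genes. LFD mice had 219, 241, 242 and 269 CPM, HFD mice 243, 276, 281 and 279 CPM, and icosapent ethyl mice 267, 233, 243 and 274 CPM. The groups overlapped, with HFD mouse 1 beside LFD mice 5 and 6. The log2 fold change of HFD versus LFD mice was 0.15 with an interval from -0.04 to 0.33 (adjusted p = 0.296), so the interval held no change larger than 0.33 in either direction. *Adipor2* (chr6:119353150-119417704, minus strand), the receptor tied to PPARα, was at 100, 129, 125 and 145 CPM in LFD, 136, 130, 147 and 157 CPM in HFD, and 124, 126, 133 and 167 CPM in icosapent ethyl mice. LFD mouse 2 was the lowest and icosapent ethyl mouse 4 the highest, and the groups overlapped. Its log2 fold change was 0.19 with an interval from -0.06 to 0.43 (adjusted p = 0.315). The ratio of *Adipor1* to *Adipor2* per kilobase stayed between 1.95 and 2.59 in all mice, and their log2 CPM correlated with r = 0.770 and rho = 0.748 (adjusted p = 0.0190 and 0.0304 over the 45 pairs, r = 0.602 without the 2 farthest mice). Like *Insr* and *Igf1r*, both followed the adrenocortical markers, with r = 0.875 and rho = 0.839 for *Adipor1* (adjusted p = 0.0063 and 0.021, r = 0.786 without the 2 farthest mice and 0.872 within groups). For *Adipor2* they were r = 0.824 and rho = 0.706 (adjusted p = 0.00823 and 0.0755, r = 0.719 without the 2 farthest mice and 0.778 within groups). *Adipor1* also ran opposite to the chromaffin markers (r = -0.800, rho = -0.853, permutation test, adjusted p = 0.0131 and 0.021, r = -0.698 within groups). *Adipor2* ran opposite to the fibroblast and capsule markers (r = -0.735, rho = -0.622, adjusted p = 0.0373 and 0.141, r = -0.426 without the 2 farthest mice). The 12 *Adipor1* values spanned 1.28-fold, lowest in LFD mouse 2 and highest in HFD mouse 3. The TMM factor was highest in LFD mouse 2 (1.14) and lowest in HFD mouse 3 (0.883). No relation was computed without that scaling, so its part in them was not tested. The part of these lists in the values of the 2 genes was not tested either.

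*Irs1* (chr1:82233101-82291416, minus strand), an adaptor of both tyrosine kinase receptors, was the scarcest of the 10 transcripts. It was at 5.64, 2.16, 2.36 and 0.998 CPM in LFD mice, at 3.72, 3.56, 1.75 and 2.15 CPM in HFD mice, and at 4.22, 4.45, 1.43 and 2.37 CPM in icosapent ethyl mice. The highest and the lowest of the 12 mice were both LFD mice, and the log2 fold change was -0.02 with an interval from -1.14 to 1.10. Its sign turned in 3 of 8 fits that left out 1 mouse, and without LFD mouse 2 it was 0.60. *Irs1* ran with the adipocyte markers (r = 0.759, rho = 0.678, permutation test, adjusted p = 0.0267 and 0.0872, r = 0.629 without the 2 farthest mice and 0.882 within groups). Most of that sum came from *Plin1* and *Fabp4* (means of 169 and 150 CPM over the 12 mice). *Irs1* ran opposite to the endothelial markers (r = -0.728, rho = -0.790, adjusted p = 0.0373 and 0.0297, r = -0.680 without the 2 farthest mice and -0.763 within groups). The part of these lists in the *Irs1* values was not tested. Another gene, *Gm9747*, lies across 30.9% of the *Irs1* exon bases on the opposite strand, and counting was by strand.

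*Irs2* (chr8:10984681-11008458, minus strand), the other adaptor, varied most within groups. It was at 18.005, 46.2, 38.0 and 79.0 CPM in LFD mice, at 62.1, 125, 22.6 and 14.99 CPM in HFD mice, and at 85.9, 18.2, 116 and 23.3 CPM in icosapent ethyl mice. Each group held both low and high mice, and the 12 values spanned 8.37-fold. The within-group SD of log2 CPM, 1.21, exceeded that of 99.6% of 16262 genes, and that of 99.4% of 4573 genes with a mean within 2-fold of its own. The HFD versus LFD log2 fold change was 0.32 with an interval from -1.16 to 1.79, so these mice did not resolve a change of 2-fold in either direction. *Irs2* was correlated with none of the other 9 genes beyond r = 0.137 in the positive direction or r = -0.222 in the negative. Chosen after its values were seen, the genes that followed *Irs2* most closely were *Slc25a25*, *Midn* and *Foxc2* (r = 0.975, 0.973 and 0.963), the first a mitochondrial carrier of ATP and phosphate. The ratio of *Irs2* to *Irs1* per kilobase ran from 4.62 to 117 among the mice.

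*Foxo1* (chr3:52268336-52353221, plus strand), the transcription factor at the end of the insulin branch, was at 41.1, 38.3, 33.6 and 42.4 CPM in LFD mice. HFD mice had 44.5, 47.2, 47.2 and 46.8 CPM, and icosapent ethyl mice had 41.2, 36.5, 31.8 and 45.02 CPM. The HFD mice lay within a narrow band, above every LFD mouse, and icosapent ethyl mouse 4 was the only icosapent ethyl mouse to reach that band. The HFD versus LFD log2 fold change was 0.25 with an interval from 0.04 to 0.45, and it did not pass the test (adjusted p = 0.145). *Foxo1* ran opposite to the chromaffin markers (r = -0.680, rho = -0.818, permutation test, adjusted p = 0.0772 and 0.021, r = -0.542 within groups), and their part in the *Foxo1* values was not tested.

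**Figure D3:**
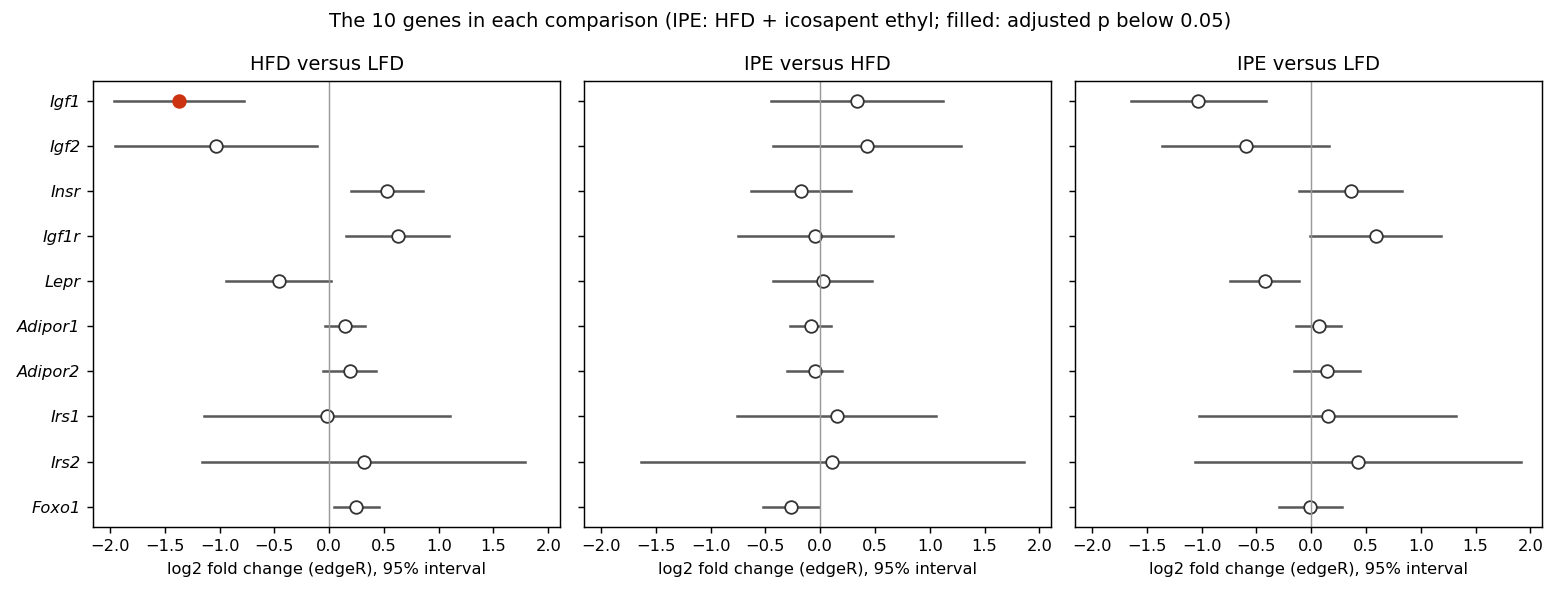
Log2 fold change (edgeR) of each of the 10 genes with its 95% interval in the 3 comparisons; IPE stands for HFD + icosapent ethyl, and a filled point marks an adjusted p below 0.05. The only filled point is *Igf1* in HFD versus LFD mice (-1.37), and the intervals of *Irs1* and *Irs2* are the widest.

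Single mice stood at the same end for several genes. LFD mouse 2 was the lowest of the 12 for *Insr*, *Igf1r*, *Adipor1* and *Adipor2* and the highest for *Irs1* and *Lepr*, and it also had the lowest adrenocortical marker sum, 46562 CPM. HFD mouse 4 was the lowest for *Igf1*, *Igf2*, *Lepr* and *Irs2*. Without LFD mouse 2, the HFD versus LFD log2 fold changes were 0.44 for *Insr*, 0.53 for *Igf1r*, 0.11 for *Adipor1*, 0.10 for *Adipor2* and -0.34 for *Lepr*. No gene among the 10 passed in that fit.

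The comparison of icosapent ethyl with HFD mice asks whether the supplement moved these transcripts under the same diet. None of the 10 genes passed in this edgeR test, as none of the 15913 genes tested did (0%). DESeq2 called 6 genes, none of them among the 10, and 221 genes (1.39%) had an unadjusted p below 0.05. Among the 10, *Foxo1* did so, with means of 38.6 ± 5.75 and 46.4 ± 1.27 CPM, a log2 fold change of -0.27, an interval from -0.52 to -0.01 and an adjusted p near 1. For *Igf1* the log2 fold change was 0.34 with an interval from -0.45 to 1.12, and for *Igf2* it was 0.43 with an interval from -0.43 to 1.28. Both intervals included 0 and also changes of 2-fold upward. Besides *Foxo1*, the narrowest intervals were those of *Adipor1* (-0.28 to 0.10) and *Adipor2* (-0.31 to 0.20), and that of *Lepr* ran from -0.43 to 0.48. The intervals of *Insr* (-0.64 to 0.28) and *Igf1r* (-0.75 to 0.66) were wider than those of the adiponectin receptors, and for *Insr* and *Igf1r* icosapent ethyl mice 1 and 2 lay below mice 3 and 4.

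The icosapent ethyl mice were also compared with the LFD mice, which serve the HFD comparison too, so these comparisons are not independent. None of the 10 genes passed in the edgeR test, nor did any of 15935 genes (0%), while 2225 genes (14.0%) had an unadjusted p below 0.05 and DESeq2 called 467. *Igf1* was at 8.17 ± 3.48 CPM against 16.7 ± 2.62 CPM, a log2 fold change of -1.03 with an interval from -1.65 to -0.41. Its adjusted p was 0.230 with edgeR and 0.0203 with DESeq2, where no other of the 10 passed. *Lepr* was at 11.8 ± 1.01 against 15.8 ± 2.32 CPM, a log2 fold change of -0.42 with an interval from -0.74 to -0.11 (adjusted p = 0.267). These 2 genes did not overlap between the groups, against 7.73% of all genes. *Foxo1* differed by -0.01 with an interval from -0.30 to 0.28.

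Among the other genes of these pathways, 98 of 104 were tested in HFD versus LFD mice and 5 passed, 4 as higher and 1 as lower, which is 5.1% beside 1.45% of all genes. Their median log2 fold change was 0.05 beside -0.02 for all genes, and 19 of 98 (19.4%) did not overlap between the groups, beside 13.5% of all genes. *Rps6kb1*, which encodes the S6 kinase downstream of mTORC1, rose from 31.7 ± 2.32 to 49.0 ± 5.48 CPM (log2 fold change 0.62, SE 0.10, adjusted p = 0.0380). *Bcl6*, a transcriptional repressor listed with the FOXO targets, rose from 24.6 ± 6.22 to 70.2 ± 20.8 CPM (2.83-fold, adjusted p = 0.0398). *Cited2*, a transcriptional co-regulator and FOXO target that is also needed for adrenal development, rose from 74.5 ± 17.4 to 156 ± 28.3 CPM (1.06, SE 0.19, 0.0400). In these 3 genes every HFD mouse was above every LFD mouse. *Klf15*, a factor of amino acid and glucose metabolism, fell from 25.5 ± 4.55 to 13.2 ± 2.11 CPM (-0.96, SE 0.17, 0.0408). *Prkab1*, a regulatory subunit of AMPK, rose from 29.4 ± 3.09 to 46.7 ± 6.89 CPM (0.65, SE 0.13, 0.049999, just under the threshold). All 5 had groups that did not overlap. The number of calls depended on the tool and the mice, with 19 of the 98 called by DESeq2, 10 by a fit of all 12 mice, and 0 to 13 when 1 mouse was left out.

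**Figure D4:**
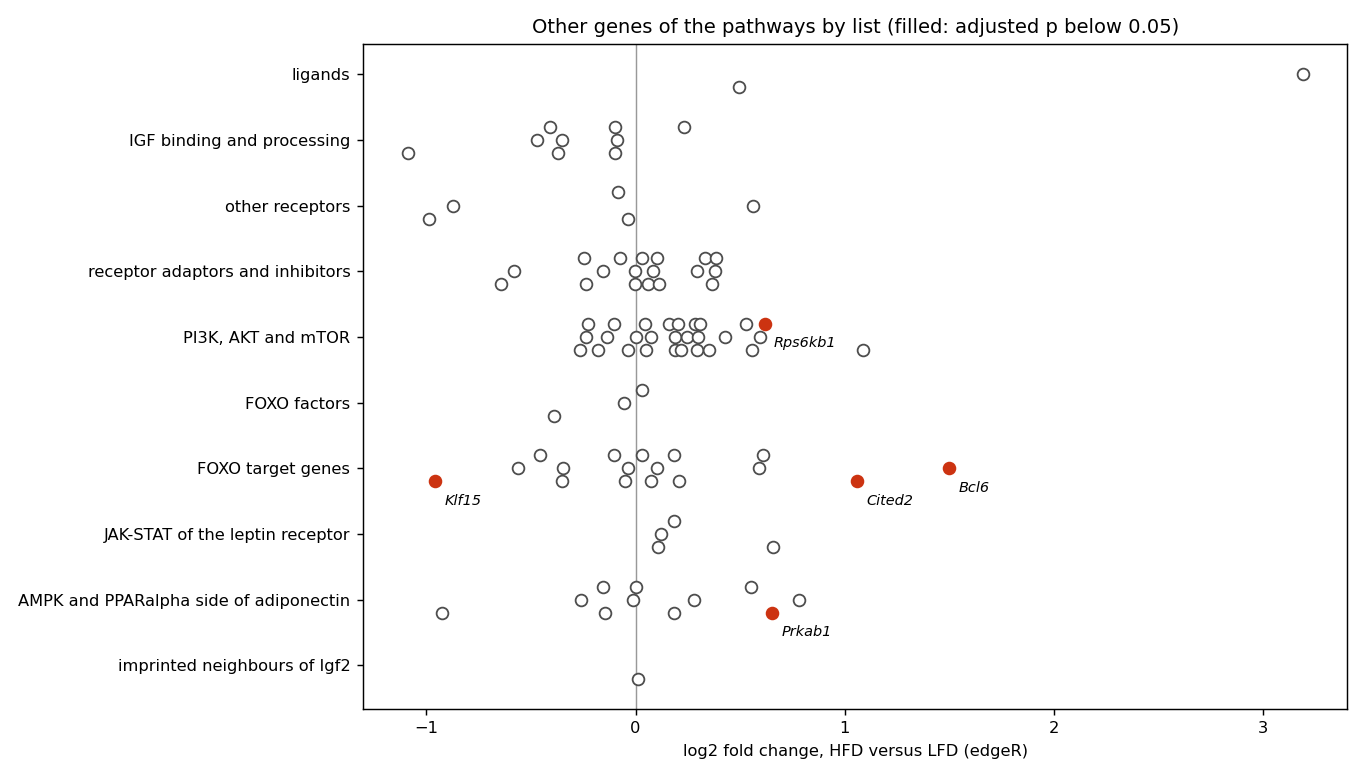
Log2 fold change (edgeR) of the 98 tested pathway genes in HFD versus LFD mice, 1 row per list, with filled points and names for an adjusted p below 0.05. The 4 filled points to the right are *Rps6kb1*, *Bcl6*, *Cited2* and *Prkab1*, the 1 to the left is *Klf15*, and the point farthest right is *Lep* at 3.19.

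The lists were described one by one, and differences between them were not tested. Over all genes, 7675 of 15909 had a higher mean in HFD mice and 24.8% had an unadjusted p below 0.05. In the list of PI3K, AKT and mTOR genes, 21 of 28 had a higher mean in HFD mice, with 1 passing (*Rps6kb1*) and a median log2 fold change of 0.20. The nearest to the threshold after the 5 were 2 of its members, *Pdpk1*, the kinase that activates AKT and S6 kinase (51.5 ± 8.44 to 76.2 ± 3.62 CPM, 0.56, adjusted p = 0.0501), and *Tsc1*, a brake on mTORC1 (16.3 ± 2.005 to 23.7 ± 1.76 CPM, 0.53, 0.0590). In the list of IGF binding and processing, 8 of 9 tested genes had a lower mean in HFD mice and 0 passed, with 2 at an unadjusted p below 0.05 and a median of -0.35. Of 17 tested FOXO targets, 2 rose, 1 fell and 14 did not pass. The lists of receptor adaptors and inhibitors (18 tested, median 0.05), JAK-STAT genes of the leptin receptor (4 tested, 0.15), other receptors (5 tested, -0.08) and FOXO factors (3 tested, -0.06) held no gene that passed, with 3, 1, 2 and 1 at an unadjusted p below 0.05. The list of AMPK and PPARα genes held 1 of 11 that passed, *Prkab1*.

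The IGF-binding proteins, which carry IGF1 and IGF2 and set how much is free, were measured in the same fits. For *Igfbp5*, LFD mice averaged 621 ± 151 CPM and HFD mice 582 ± 54.1 CPM, and *Igfbp7* was at 615 ± 83.0 and 577 ± 51.8 CPM. *Igfbp3* was at 181 ± 35.2 and 141 ± 40.9 CPM, and *Igfbp4* at 148 ± 31.6 and 108 ± 15.5 CPM. None of the 4 passed the test. *Igfbp6*, which prefers IGF2, had the largest difference of the family, from 63.4 ± 22.9 to 30.1 ± 6.18 CPM (log2 fold change -1.09, interval -1.65 to -0.52, adjusted p = 0.0613), with no overlap between the groups. *Igfbp2* stayed below 1 CPM and *Igfbp1*, a FOXO target of the liver, had no count in any mouse.

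The remaining receptors and ligands were read for context. *Igf2r*, the receptor that clears IGF2 and is imprinted like it, averaged 130 ± 22.9 CPM on the LFD and 193 ± 25.6 CPM on the HFD (0.56, adjusted p = 0.0715) with no overlap, and *Insrr*, the insulin receptor-related receptor, was at 2.24 ± 1.01 and 1.14 ± 0.747 CPM. *Leprot*, which shares its start with the leptin receptor gene, was at 111 ± 9.15 and 106 ± 5.73 CPM. None of these 3 passed the test. *Lep* had 3.25, 0.407, 0.712 and 0.428 CPM in LFD mice and 16.3, 9.58, 14.4 and 4.88 CPM in HFD mice, with no overlap (log2 fold change 3.19, interval 1.55 to 4.83, adjusted p = 0.0603). Its counts ran from 18 to 766 among the 12 libraries. The 10 adipocyte markers, of which *Lep* is one, summed to 252 to 450 CPM on the LFD and to 385 to 504 CPM on the HFD. *Plin1* (156 and 195 CPM in LFD and HFD mice) and *Fabp4* (123 and 167 CPM) made up most of the sum. Of the 10, 7 had a higher mean in HFD mice and 3 a lower one, and 0 passed. The 3 were *Cfd* (9.12 and 2.09 CPM), *Retn* (3.55 and 1.52 CPM) and *Cidea* (2.12 and 1.56 CPM). *Adipoq*, the adiponectin gene and likewise a fat cell marker, was at 5.39 ± 4.26 and 7.72 ± 3.12 CPM (0.50, adjusted p = 0.645). *Foxo3*, a close relative of *Foxo1*, had every HFD mouse below every LFD mouse, with means of 72.0 ± 8.66 and 93.9 ± 12.4 CPM, and did not pass (-0.39, adjusted p = 0.107).

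In icosapent ethyl versus HFD mice, 0 of 99 tested pathway genes passed in edgeR or DESeq2, and 4 had an unadjusted p below 0.05, beside 1.39% of all genes. *Cited2* had the lowest, with 98.7 ± 19.4 against 156 ± 28.3 CPM, a log2 fold change of -0.66 with an interval from -1.04 to -0.28 and an adjusted p near 1, and the groups did not overlap, against 1.14% of all genes. Against LFD mice, 0 of 99 passed with edgeR, 18 had an unadjusted p below 0.05 beside 14.0% of all genes, and DESeq2 called 4 beside 467 of all 15935 genes.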

How the data were processed

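The deposited files hold whole-number read counts, 1 table for each mouse, which the authors made from reverse-stranded total RNA libraries with cutadapt, STAR on GRCm38 and HTSeq 0.6.1p1 on the GENCODE M12 genes; the study describes paired-end libraries and single reads. Gene positions and exon lengths were taken from GENCODE M21, which named 49326 of 49585 gene IDs. Groups were compared by the quasi-likelihood test of edgeR 4.0.16, with robust fitting, TMM scaling, the filter filterByExpr (minimum count 10) and an adjusted p (Benjamini-Hochberg, all genes) below 0.05, under R 4.3.3, in the mice of both groups only, without covariates. Printed CPM used the TMM factors of all 12 mice (0.883 to 1.14), whereas each fit used its own. Correlations used log2(CPM + 0.5) with 100000 permutations of all 12 mice, regardless of group. Their p therefore also takes in differences between the groups, and no p within groups was computed. The search for like genes covered 13457 genes with a mean of at least 1 CPM.

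Groups came from the labels. The mice were separate animals, and the closest of 66 pairs of libraries differed well beyond sampling noise (chi-square per degree of freedom 25.9). Deviations of same-numbered HFD and icosapent ethyl mice had positive correlations (0.310, 0.146, 0.392 and 0.760 for numbers 1 to 4). HFD mouse 4 was closest to its own number. HFD mice 1, 2 and 3 were closer to icosapent ethyl mice 2 (0.681), 1 (0.571) and 4 (0.458). Values between mice numbered 1 or 2 and mice numbered 3 or 4 were all negative, from -0.716 to -0.169. Those among numbers 1 and 2 ran from 0.146 to 0.681, and those among numbers 3 and 4 from -0.036 to 0.760. The part of this split in the correlations within groups was not tested. These values do not establish that the numbers mark pairs, and no pairing is given in the sources used here. The LFD mice share only the number 2 with the others.

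Named were all 10 genes, the pathway genes that passed (and, in HFD versus LFD mice, at least the 8 with the lowest p), the hormones, binding proteins and other receptors given by level, and for *Igf1*, *Insr* and *Igf1r* the 3 genes most alike. *Igf2*'s and *Irs2*'s closest genes were chosen after their values were seen. The genes, lists and tests were chosen with earlier results of these data known. The fits were also run on simulated counts, drawn independently for each gene. Such counts lack variation shared between genes, so they cannot show how the fits behave where mice share it.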

Additional observations from a re-analysis of the deposited data

Results flagged for a closer look

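Of 30 groups of 4 mice checked (10 genes in 3 groups), 3 held a mouse far from the other 3 by Dixon's ratio, where chance alone gives about 1 in 20 such groups. *Igf1r* in LFD mouse 2 was at 50.9 CPM, below the other LFD mice at 68.8 to 71.8 CPM. *Adipor1* in HFD mouse 1 was at 243 CPM, below the other HFD mice at 276 to 281 CPM. *Foxo1* in HFD mouse 1 was at 44.5 CPM, below the others at 46.8 to 47.2 CPM, a gap that is large only beside the narrow spread of that group.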

How the results depend on the processing

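The alternatives were DESeq2 1.42.0, unscaled library totals, the size factors of DESeq2 within edgeR, a filter of 10 counts in every mouse or none, 1 fit of all 12 mice, and leaving out each mouse. In HFD versus LFD mice, the number of the 10 genes called was 2 with DESeq2 and 0 with library totals, against 1, and 0 to 1 without 1 mouse. The number of pathway genes called was 19 with DESeq2, 2 with library totals and 10 with all 12 mice, against 5, and 0 to 13 without 1 mouse. Over all genes, 230 became 2008 with DESeq2, 179 with its size factors, 84 with library totals, 556 with all 12 mice and 0 to 918 without 1 mouse. In icosapent ethyl versus LFD mice, DESeq2 called 1 of the 10 genes and 4 pathway genes, against 0. The causes were not tested. Library totals moved the median log2 fold change of all genes in HFD versus LFD mice to -0.11, and calls went from 155 higher and 75 lower to 40 and 44. No direction among the 10 genes changed there. Over the alternatives that kept all mice, log2 fold changes went as low as 0.046 for *Adipor1*, 0.089 for *Adipor2* and 0.146 for *Foxo1*. The main fit gave 0.146, 0.187 and 0.248. The lowest were 0.424 for *Insr*, 0.506 for *Igf1r*, -0.54 for *Lepr*, -1.12 for *Igf2* and -1.44 for *Igf1*.

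Values near 0 turned sign. They were *Irs1* in HFD versus LFD mice with all 12 mice (0.000), *Igf1r* (0.014) and *Adipor2* (0.006) in icosapent ethyl versus HFD mice with library totals, and *Foxo1* in icosapent ethyl versus LFD mice with DESeq2 (0.000) and with its size factors (0.000). Leaving out 1 mouse turned 26 of the values. In HFD versus LFD mice the ranges were -0.30 to 0.60 for *Irs1* and -0.44 to 0.72 for *Irs2*. In icosapent ethyl versus HFD mice they were -0.34 to 0.14 for *Igf1r*, -0.073 to 0.39 for *Irs1*, -0.40 to 0.87 for *Irs2* and -0.081 to 0.22 for *Lepr*. In icosapent ethyl versus LFD mice they were -0.13 to 0.75 for *Irs1*, -0.091 to 0.84 for *Irs2* and -0.09 to 0.08 for *Foxo1*. With the replicate number as a block, 0 of the 10 genes and 0 pathway genes passed in icosapent ethyl versus HFD mice, and the block changed no call. Over all genes, 696 had an unadjusted p below 0.05 in the edgeR test with the block, against 221 without it.

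Depth limited *H19*, with at most 27 counts, and *Ins2*, with at most 3, and all comparisons rested on 4 mice per group. Reads shared by paralogs could not be reassigned from counts.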
